A study of Mus musculus with 6 samples.

Results

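The serpin protease inhibitor genes were followed in RNA from MOC2 cells, an established line from a papillomavirus-negative squamous carcinoma of the mouse mouth. Of 55418 gene symbols in the count table, 63 carry a serpin name of clades A to I, and the 31 with at least 10 counts over the 6 libraries are the members described here. Of these, 19 passed the filter on low counts and were tested. Polyadenylated RNA was sequenced from 3 samples labelled EphA4 knockout, taken from 1 edited clone named H3, and from 3 samples labelled control CRISPR. All samples were untreated MOC2 cells grown with EGF, hydrocortisone and insulin, thawed and passaged 2 times, and carry the same batch label. The question is how RNA levels in cells edited at Epha4, which encodes an ephrin receptor kinase, compare with those in control cells. Since the knockout cells are 1 clone, the edit and other traits of that clone cannot be told apart.

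Serpins share a fold with an exposed reactive centre loop. An inhibitory serpin offers this loop to a protease as bait, is cleaved, and snaps into a form that traps the enzyme in a covalent complex. Most clades are secreted, while clade B proteins lack a classical signal peptide and work mainly inside cells. Some members, among them Serpinh1, Serpinf1 and Serpinb5, inhibit no protease and have other tasks. In carcinomas the family is best known for the plasminogen activator inhibitors, which act on matrix breakdown and migration, and for inhibitors that shield cells from granzymes of killer lymphocytes.

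Library totals were 35807059, 36970984 and 37174736 counts in the libraries labelled EphA4 knockout and 36900259, 35115926 and 41775031 counts in control libraries, so 1 count equals 0.0239 to 0.0285 CPM, the counts scaled to a common library size. Epha4 transcript went against its label. It had 3483, 3815 and 3606 counts in the libraries labelled EphA4 knockout, against 1907, 2110 and 2250 in control libraries (log2 fold change 0.86, SE 0.06, edgeR adjusted p = 2.1e-06). Each direction below is therefore that of the labelled libraries, not of a loss of Epha4 transcript. EphA4 knockout replicate 3 stood apart from its group: chi-square per degree of freedom was 35.1 and 34.1 against the other libraries labelled EphA4 knockout, and 4.63 between those. Across all 15199 genes tested, 71.5% were called at an adjusted p under 0.05, 32.7% as higher and 38.8% as lower, and for 75.9% no library of 1 group lay within the range of the other. Squamous and epithelial markers summed to 5731 to 5777 CPM in the libraries labelled EphA4 knockout and 5210 to 5271 CPM in control libraries. That sum came mainly from Krt8, Krt18, Cdh1 and Epcam. The basal squamous markers Krt5 and Trp63 were nearly absent, with 0 and 2 counts in the libraries labelled EphA4 knockout and 2 and 2 in control libraries.

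Several secreted and matrix-directed serpins fell, while the secreted members Serpina9, Serpinc1 and Serpinf2 were not called. Of the mainly intracellular clade B, 60% of tested members were lower, against 63.2% of all tested members. Of the 2 clade B members called higher, Serpinb9c lost its call in 9 of 14 alternatives. Serpine2, Serpinf1 and Serpinh1 were each more than 4-fold lower in the libraries labelled EphA4 knockout. In clade B, Serpinb9, Serpinb6b and Serpinb1b fell, Serpinb5 rose, and Serpinb2 and the abundant Serpinb6a had log2 fold changes of 0.11 and -0.11. Of the 19 tested members 12 were lower, 2 were higher and 5 were not called, so 73.7% were called, against 71.5% of all genes tested. The share called lower was 63.2%, against 38.8% of all genes. Among tested members 52.6% were lower by at least 1 on the log2 scale, against 20.1% of all genes. The median log2 fold change of the tested members was -1.57, against -0.04 over all genes. These counts describe the tested members only. A gene high in 1 group can pass the filter through that group alone, so they are no evidence about the family as a whole.

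**Figure D1:**
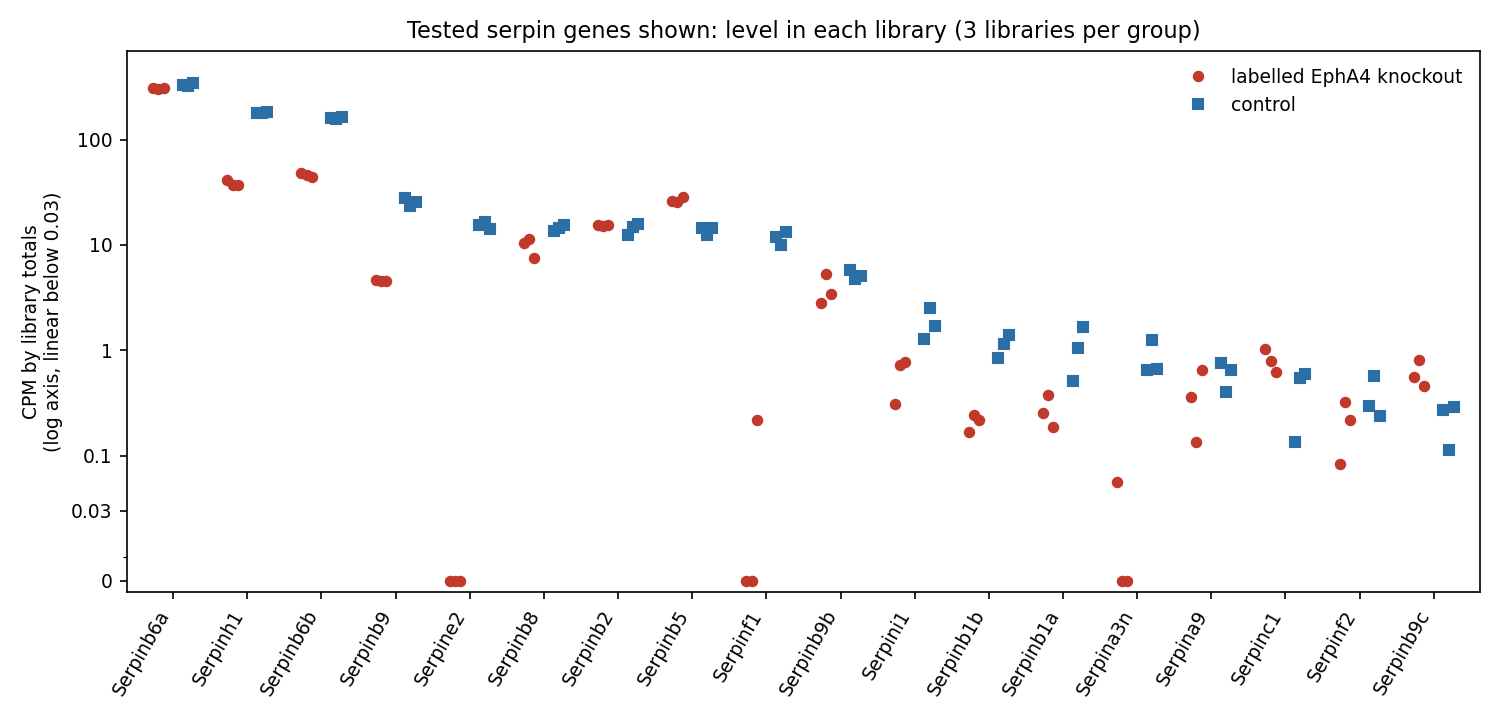
CPM by library totals (log axis, linear below 0.03) of 18 of the 19 tested serpin genes in each library, ordered by control level; circles are the 3 libraries labelled EphA4 knockout and squares the 3 control libraries. Serpine2 lies at 0 in all libraries labelled EphA4 knockout, Serpinb6a lies near 300 CPM in both groups, and Serpinb5 is higher in the libraries labelled EphA4 knockout.

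Transcript levels were compared between members per exon length, in TPM, a share of length-scaled counts. In the libraries labelled EphA4 knockout the order was led by Serpinb6a at 195 ± 4.77 TPM, Serpinb6b at 70.2 ± 4.49 TPM, Serpinh1 at 54.3 ± 4.30 TPM and Serpinb5 at 33.5 ± 0.77 TPM (SD, n = 3). In control libraries it was led by Serpinh1 at 235 ± 2.17 TPM, Serpinb6b at 225 ± 2.76 TPM and Serpinb6a at 195 ± 4.56 TPM (SD, n = 3). The order in TPM thus changed at the top, with Serpinb6a leading in the libraries labelled EphA4 knockout and below Serpinh1 and Serpinb6b in control libraries. This order rests on lengths that merge all annotated exons, 5409 bases for Serpinb6a, 2262 for Serpinb6b and 2443 for Serpinh1. Without exon length Serpinb6a led in both groups. In control libraries its mean was 332 CPM, against 181 CPM for Serpinh1 and 160 CPM for Serpinb6b. Further down the control order, Serpinb5 at 15.9 ± 1.19 TPM and Serpinf1 at 15.8 ± 2.05 TPM did not differ beyond their spread (SD, n = 3 each).

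The summed serpin level was lower in every library labelled EphA4 knockout. All 63 symbols together reached 410, 405 and 381 TPM in the libraries labelled EphA4 knockout, against 786, 779 and 800 TPM in control libraries. Serpinb6a, a cytoplasmic inhibitor, made up 48.4% to 49.8% of that sum in the libraries labelled EphA4 knockout and 24.6% to 25.0% in control libraries. Of serpin counts, without exon length, Serpinb6a made up 66.5% to 67.7% in the libraries labelled EphA4 knockout and 40.4% to 41.2% in control libraries. Serpinh1 made up 13.2% to 14.3% of the summed TPM in the libraries labelled EphA4 knockout and 29.6% to 30.1% in control libraries.

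**Figure D2:**
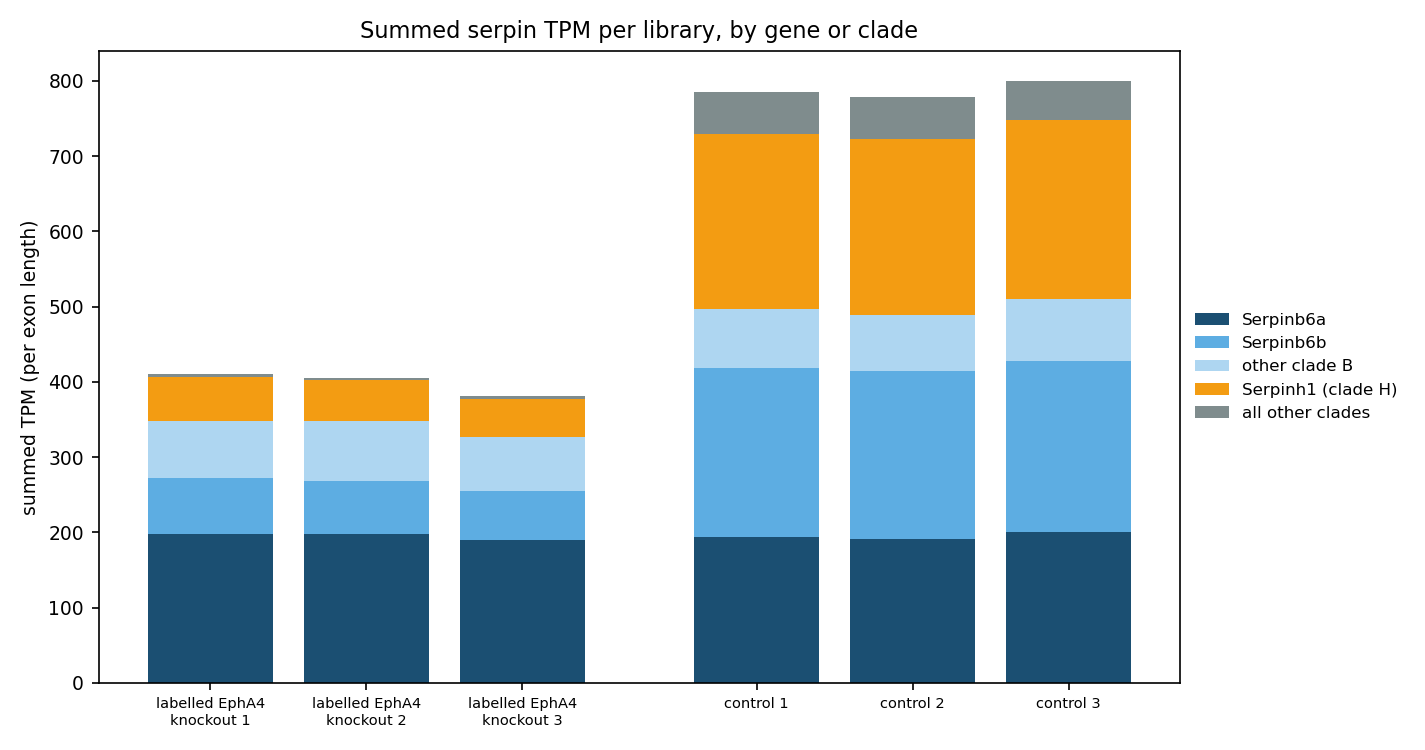
Stacked bars of summed TPM per library, with the 3 libraries labelled EphA4 knockout left of the 3 control libraries and colours for single genes or clades. The Serpinb6a block is about equally tall in all libraries, while the blocks of Serpinb6b and Serpinh1 and the summed block of all other clades are smaller in the libraries labelled EphA4 knockout.

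Serpine2 (clade E, chromosome 1) encodes protease nexin-1, a cell-associated inhibitor of thrombin and urokinase. It had 0 counts in each library labelled EphA4 knockout, against 568, 575 and 588 counts in control libraries. With a floor of 3 counts over the group, its level was at least 558-fold lower in the libraries labelled EphA4 knockout (adjusted p = 1.8e-07, edgeR quasi-likelihood test). No other member above 10 CPM in control libraries was without a count in all 3 libraries labelled EphA4 knockout. Serpine3 had 0 counts in all libraries.

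The Serpine2 promoter window is shown because the gene without a count in the libraries labelled EphA4 knockout has a CpG-rich start. The window runs from 250 bases before to 50 bases after the RefSeq start site on GRCm38.p6, 5′ to 3′ on the gene's strand. Capitals mark 6 matches to GGGCGG, the Sp1 box, on either strand, some overlapping or adjoining.
Serpine2 (chr1:79858616-79858915, minus strand): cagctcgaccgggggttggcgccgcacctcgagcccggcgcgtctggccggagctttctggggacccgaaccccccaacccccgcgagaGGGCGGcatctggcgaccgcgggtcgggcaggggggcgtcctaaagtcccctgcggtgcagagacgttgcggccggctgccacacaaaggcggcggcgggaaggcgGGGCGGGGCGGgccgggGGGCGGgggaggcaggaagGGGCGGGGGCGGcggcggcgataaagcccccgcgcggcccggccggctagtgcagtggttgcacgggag
It holds 41 CG pairs, a number reached by 3.46% of the 32851 promoter windows of the same length, and 35.7% of all windows hold GGGCGG. Methylation was not measured.

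The plasminogen activation genes did not all move the same way. Plau, which encodes urokinase, had 2105, 1931 and 2210 counts in the libraries labelled EphA4 knockout, against 8831, 7815 and 9320 in control libraries (log2 fold change -2.00, SE 0.06, adjusted p = 1.4e-08, edgeR). Plat, the tissue-type activator, fell by 2.69 on the log2 scale, and Plaur, the urokinase receptor, rose to 109 ± 1.93 CPM in the libraries labelled EphA4 knockout, against 52.3 ± 0.87 CPM in control libraries (SD, n = 3 each). Lrp1, an endocytic receptor that clears serpin-protease complexes, fell by 3.90 on the log2 scale. Plg, the plasminogen gene itself, had 0 counts in all libraries, and Vtn, the vitronectin gene, had 0 counts in the libraries labelled EphA4 knockout and 11 in control libraries.

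Serpinh1 (clade H, chromosome 7) encodes HSP47, a chaperone of the endoplasmic reticulum that binds folding procollagen. It had 1474, 1386 and 1376 counts in the libraries labelled EphA4 knockout, against 6667, 6234 and 7660 in control libraries. The groups did not overlap, with 38.7 ± 2.15 CPM in the libraries labelled EphA4 knockout and 180 ± 3.63 CPM in control libraries (SD, n = 3 each). The log2 fold change was -2.22 (SE 0.05, adjusted p = 3.1e-09, edgeR), with an interval of -2.33 to -2.11.

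Of 23 tested collagen folding genes, 16 were lower, 4 higher and 3 not called, beside 38.8% called lower and 32.7% called higher over all genes. Their median log2 fold change was -0.41, against -0.04 over all genes. The prolyl hydroxylase subunit genes P4ha2 and P4ha1 fell by 5.84 and 1.69 on the log2 scale, and P3h3 and Fkbp14 had log2 fold changes of -4.17 and -2.13, both called. The general chaperone partner P4hb had a log2 fold change of -0.07 and did not pass (adjusted p = 0.080, edgeR). Fibroblast and pericyte markers summed to 1.96 to 2.06 CPM in the libraries labelled EphA4 knockout and 50.8 to 54.1 CPM in control libraries. All 7 tested markers of that list were lower. Most of them passed the filter through control libraries alone, so this count is no evidence about the list as a whole. In the libraries labelled EphA4 knockout 8 of its 12 genes had any count, and in control libraries 11. Lum was at 0 in all libraries, Dcn was at 0 in the libraries labelled EphA4 knockout, and Col1a2 had 29 counts there, against 5 in control libraries. Whether these marker transcripts come from MOC2 cells or from other cells was not tested. Any part of them in the changes of Serpinh1, Serpine2 and Serpinf1 was also not tested. In bulk RNA fewer cells of a type and less RNA per cell cannot be told apart.

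Clade F, on chromosome 11, had 1 member that fell and 1 that was not called. Serpinf1 encodes PEDF, a secreted protein without protease inhibition that restrains vessel growth. It had 0, 0 and 8 counts in the libraries labelled EphA4 knockout, against 442, 350 and 552 in control libraries (log2 fold change -7.26, SE 0.80, adjusted p = 3.9e-05, edgeR). All 8 counts came from EphA4 knockout replicate 3, and without that library Serpinf1 was at least 287-fold lower by the floor of 3 counts. Its neighbour Serpinf2, the gene of the plasmin inhibitor alpha-2-antiplasmin, stayed low, with 3, 12 and 8 counts in the libraries labelled EphA4 knockout and 11, 20 and 10 in control libraries. These overlapped, and the interval of its log2 fold change ran from -2.30 to 0.71.

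**Figure D3:**
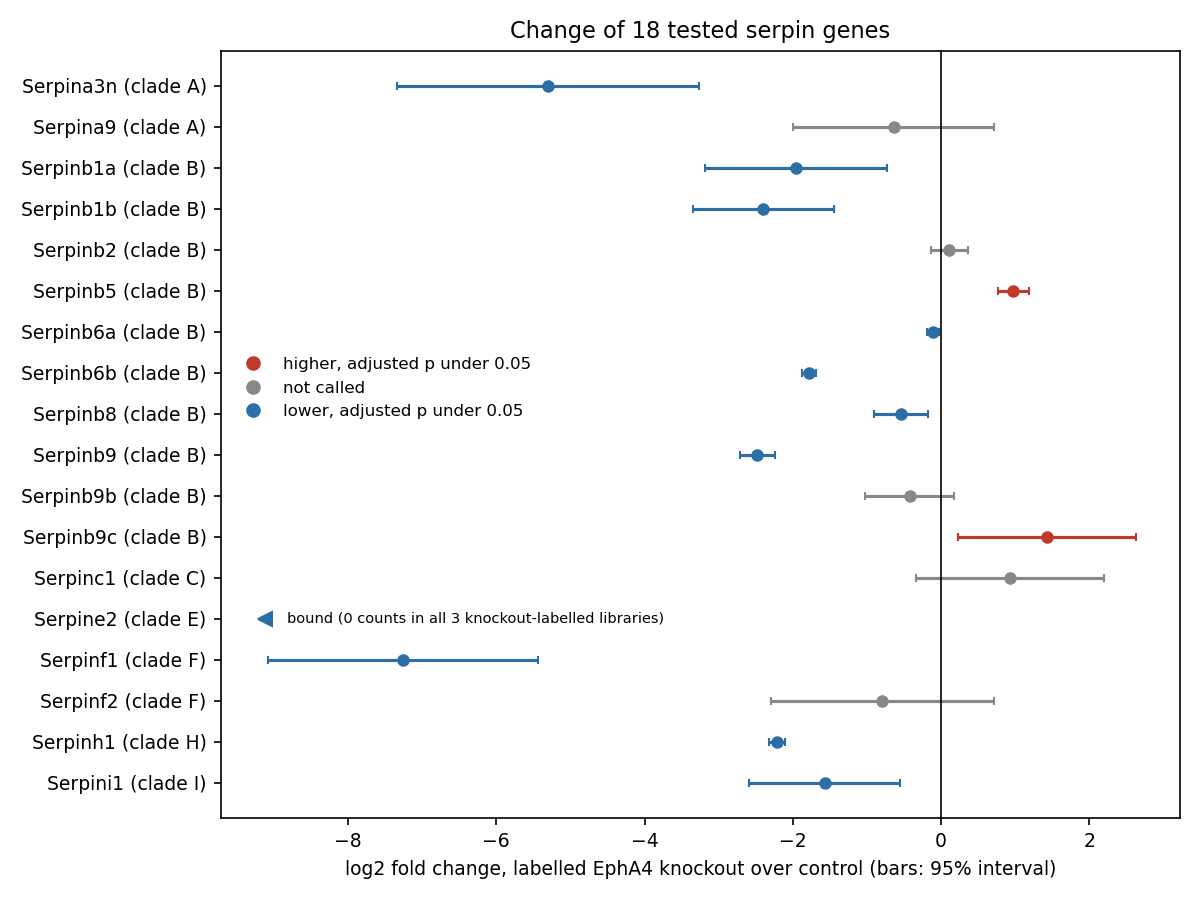
Log2 fold change (libraries labelled EphA4 knockout over control) of 18 of the 19 tested serpin genes by clade, with 95% intervals; the arrow for Serpine2 marks its bound against 3 counts. Points left of 0 are lower in the libraries labelled EphA4 knockout; Serpinb5 and Serpinb9c are the members called higher.

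Clade B held 17 members, in a cluster on chromosome 1 and another on chromosome 13. Of 10 tested members 6 were lower, 2 higher and 2 not called, or 80% called against 71.5% of all genes. On chromosome 13, Serpinb9, which protects cells from granzyme B, had 166, 167 and 170 counts in the libraries labelled EphA4 knockout, against 1033, 818 and 1081 in control libraries. Its level was 4.60 ± 0.06 CPM in the libraries labelled EphA4 knockout and 25.7 ± 2.36 CPM in control libraries (SD, n = 3 each). The groups did not overlap, and the fitted difference was -2.48 on the log2 scale (SE 0.10, adjusted p = 9.2e-08, edgeR). Of the leukocyte markers, Csf1r had 267, 267 and 314 counts in the libraries labelled EphA4 knockout, against 186, 164 and 188 in control libraries, and was called higher (log2 fold change 0.71, edgeR adjusted p = 0.0030). Ptprc had 41 counts in the libraries labelled EphA4 knockout and 14 in control libraries, and the lymphocyte markers Cd3e, Cd8a and Nkg7 had 0.

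Serpinb6a and Serpinb6b, related genes at different places in the cluster, parted. Serpinb6a had 11002, 11214 and 11498 counts in the libraries labelled EphA4 knockout, against 12267, 11305 and 14333 in control libraries. Its log2 fold change of -0.11 (SE 0.04, adjusted p = 0.027, edgeR) was small and not stable. The call was lost when any single library was left out, with log2 fold changes from -0.10 to -0.03, and also with relative log expression factors, DESeq2 and glmTreat. Serpinb6b had 1717, 1698 and 1655 counts in the libraries labelled EphA4 knockout, against 5971, 5476 and 6807 in control libraries (log2 fold change -1.79, SE 0.04, adjusted p = 5.0e-09, edgeR). The ratio of Serpinb6b to Serpinb6a counts was 0.156, 0.151 and 0.144 in the libraries labelled EphA4 knockout, against 0.487, 0.484 and 0.475 in control libraries. Models of Nqo2 and Ripk1 on the opposite strand cover, with 1110046J04Rik, 29.3% of Serpinb6a exon bases, so part of its reads cannot be assigned with certainty. Of its 50-base windows only 0.51% occur in another serpin transcript, and for Serpinb6b 2.26%.

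The start regions of this pair are shown because the genes share a name and differ in their change. Both windows are from RefSeq on GRCm38.p6, 5′ to 3′ on the gene's strand, with the same span as above. Capitals mark GGGCGG or its complement and, in Serpinb6a, 1 match to the interferon element, a motif searched on both strands and held by 3.44% of all windows. The more upstream of the listed Serpinb6a starts is given.
Serpinb6a (chr13:34002745-34003044, minus strand): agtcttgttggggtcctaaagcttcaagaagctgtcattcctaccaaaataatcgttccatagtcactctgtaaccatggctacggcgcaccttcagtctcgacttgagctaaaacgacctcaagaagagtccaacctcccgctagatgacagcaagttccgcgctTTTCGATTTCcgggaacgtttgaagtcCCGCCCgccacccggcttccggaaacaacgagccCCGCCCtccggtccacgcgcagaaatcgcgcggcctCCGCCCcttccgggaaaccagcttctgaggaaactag
Serpinb6b (chr13:32965011-32965310, plus strand): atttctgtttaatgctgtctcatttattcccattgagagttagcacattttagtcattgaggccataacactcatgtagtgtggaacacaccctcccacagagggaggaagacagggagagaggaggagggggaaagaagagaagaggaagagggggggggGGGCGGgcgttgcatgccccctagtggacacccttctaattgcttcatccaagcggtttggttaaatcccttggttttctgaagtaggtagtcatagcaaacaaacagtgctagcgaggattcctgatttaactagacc
Serpinb6a has 25 CG pairs and 3 Sp1 boxes in the window, and Serpinb6b has 4 CG pairs and 1 box. The other listed Serpinb6a start has 5 CG pairs, no Sp1 box and no interferon element. Which start is used in these cells was not tested, so the contrast holds for the window shown. The median over all windows is 7 CG pairs.

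The other chromosome 13 genes were less abundant. Serpinb1b had 6, 9 and 8 counts in the libraries labelled EphA4 knockout, against 31, 40 and 58 in control libraries (log2 fold change -2.40, SE 0.42, adjusted p = 0.00075, edgeR). Serpinb1a, a mouse counterpart of the human neutrophil elastase inhibitor, had 9, 14 and 7 counts in the libraries labelled EphA4 knockout, against 19, 37 and 69 in control libraries (log2 fold change -1.96, adjusted p = 0.00965, edgeR). The Serpinb1a call was lost without control replicate 3 (log2 fold change -1.45, adjusted p = 0.064), the highest library. Serpinb1c was untested, with 4, 3 and 2 counts in the libraries labelled EphA4 knockout, against 14, 3 and 8 in control libraries. Serpinb9b did not pass. It had 100, 197 and 126 counts in the libraries labelled EphA4 knockout, against 214, 166 and 211 in control libraries, and the ranges overlapped through EphA4 knockout replicate 2. Without that library its log2 fold change of -0.43 became -0.71 and passed (adjusted p = 0.028).

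Other Serpinb9 relatives had few counts and differed among themselves in direction. Serpinb9c was called higher, with 20, 30 and 17 counts in the libraries labelled EphA4 knockout, against 10, 4 and 12 in control libraries (log2 fold change 1.43, SE 0.53, adjusted p = 0.036, edgeR). That call was lost in 9 of 14 alternatives, among them each left-out library except EphA4 knockout replicate 3. Next to it, Serpinb9d had 15, 24 and 2 counts in the libraries labelled EphA4 knockout, against 0, 0 and 2 in control libraries, and Serpinb9e had 3, 6 and 10 counts in the libraries labelled EphA4 knockout, against 0, 1 and 1 in control libraries. Both were under the filter. For Serpinb9d, EphA4 knockout replicate 3 and control replicate 3 had the same count of 2. In CPM these were 0.0538 and 0.0479, so the groups were apart by a narrow margin only. Serpinb9g, also untested, had 1, 1 and 4 counts in the libraries labelled EphA4 knockout, against 21, 12 and 7 in control libraries. Of the 50-base windows of Serpinb9d, Serpinb9e and Serpinb9g, 30.8%, 28.4% and 44.5% occur in another serpin transcript, so counts may be split among these copies and single values are uncertain.

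With all lettered copies summed per clade number, the log2 fold change of the Serpinb9 copies was -1.70 (SE 0.13, adjusted p = 3.7e-06, edgeR). The Serpinb6 copies had -0.47 (SE 0.04, adjusted p = 3.5e-06), the Serpinb1 copies -2.08 (SE 0.36, adjusted p = 0.00072) and the Serpina3 copies -5.21 (SE 0.71, adjusted p = 0.00016). On summed counts all 4 groups of copies were lower.

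**Figure D4:**
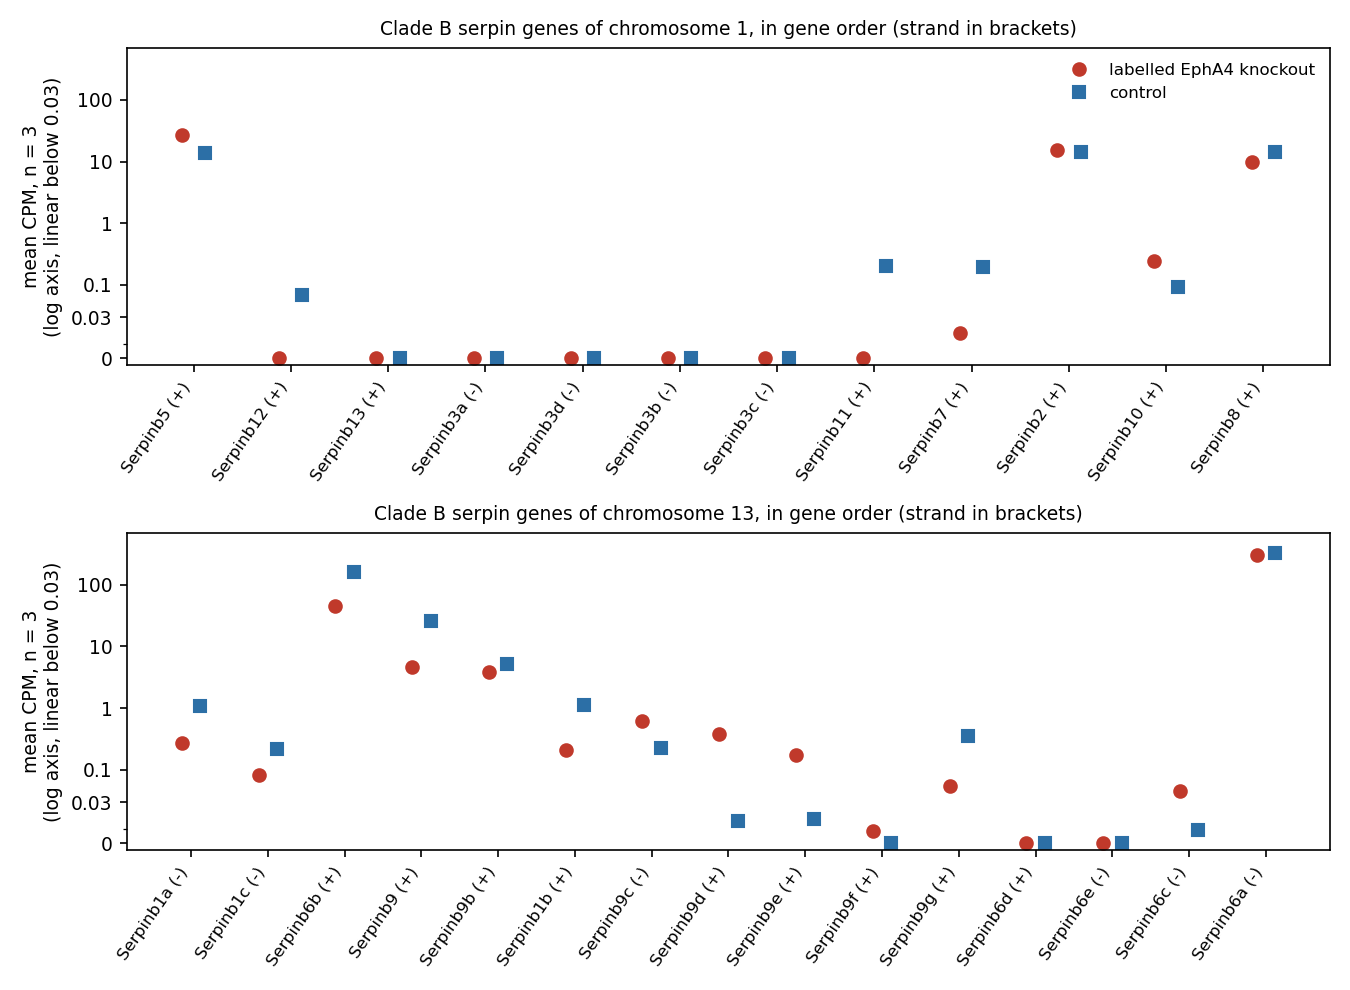
Mean CPM by library totals (n = 3, log axis, linear below 0.03) of every clade B serpin symbol on chromosome 1 (top) and chromosome 13 (bottom), in gene order; circles are libraries labelled EphA4 knockout and squares control libraries. On chromosome 1 the silent Serpinb13 and Serpinb3 copies lie between Serpinb5 and Serpinb2, and on chromosome 13 the points of Serpinb9c, Serpinb9d and Serpinb9e, the last 2 untested, lie higher for the libraries labelled EphA4 knockout.

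On chromosome 1, Serpinb5 was the member that rose. It encodes maspin, a non-inhibitory serpin of epithelial cells known as a tumour suppressor candidate. It had 945, 946 and 1057 counts in the libraries labelled EphA4 knockout, against 535, 435 and 602 in control libraries. Its level of 26.9 ± 1.63 CPM in the libraries labelled EphA4 knockout and 13.7 ± 1.22 CPM in control libraries (SD, n = 3 each) did not overlap between groups. The log2 fold change was 0.97 (SE 0.09, adjusted p = 1.4e-05, edgeR) and Serpinb5 was called higher in all 15 alternatives that gave it a value.

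The other end of the cluster differed. Serpinb2, plasminogen activator inhibitor 2, had 560, 557 and 571 counts in the libraries labelled EphA4 knockout, against 460, 517 and 658 in control libraries. The groups overlapped, and the interval of its log2 fold change ran from -0.13 to 0.36 (adjusted p = 0.37, edgeR). Serpinb8, whose human counterpart inhibits furin, had 378, 424 and 280 counts in the libraries labelled EphA4 knockout, against 497, 507 and 646 in control libraries (log2 fold change -0.54, SE 0.16, adjusted p = 0.013, edgeR). The Serpinb8 call was lost without control replicate 2 (adjusted p = 0.071) or control replicate 3 (adjusted p = 0.086), and against a fold of 1.5. Serpinb10, which shares 6.97% of its 50-base windows with Serpinb2, had 3, 6 and 18 counts in the libraries labelled EphA4 knockout, against 7, 3 and 0 in control libraries. Serpinb7 and Serpinb11 had 2 and 0 counts in the libraries labelled EphA4 knockout, against 22 and 23 in control libraries. Serpinb13 and 4 Serpinb3 copies, which lie between Serpinb12 and Serpinb11, had 0 counts in all libraries.

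The clade B members on chromosome 1 share a promoter feature that was seen after their windows were searched for several motifs. The other motifs searched were the TATA box, Sp1 box, interferon element and heat shock element. All 6 of these members hold TGANTCA, a looser form of the AP-1 motif TGAGTCA with any base in the middle. Serpinb7 and Serpinb8 hold TGAGTCA itself, and the matches of the others have A or T in the middle. TGANTCA reads the same on both strands. None of the 10 clade B members on chromosome 13 with a RefSeq window holds it. Nor do Serpine2 and Serpinc1, the other chromosome 1 members. TGANTCA occurs in 7.81% of all promoter windows. Its matches are shown with 10 bases on each side, motif in capitals, plus strand, GRCm38.p6.
Serpinb5 (chr1:106861025-106861051): aagttgggccTGAATCAtgtcttccaa
Serpinb11 (chr1:107362123-107362149): aagtatagtgTGATTCAgaaagcacag
Serpinb11 (chr1:107362228-107362254): ggtgaagagcTGAATCAtaacaacaca
Serpinb7 (chr1:107422634-107422660): agggagtgtcTGAGTCAgaggctttat
Serpinb2 (chr1:107511319-107511345): agtaaaatgtTGAATCAtacaaagaat
Serpinb10 (chr1:107528939-107528965): cttgtgaaagTGAATCAagggtggggc
Serpinb8 (chr1:107589973-107589999): gtgggaagtgTGAGTCAcagagtgttc
Serpinb8 (chr1:107590009-107590035): cattatgttcTGAGTCAcccgacaggc
The windows with TGANTCA belong to a gene that rose (Serpinb5), 1 that fell (Serpinb8), 1 not called (Serpinb2) and 3 untested genes. The match is a description of letters and shows no binding. Of the 31 members 28 had a RefSeq window. Genes of the same cluster that are not members, Serpinb12, Serpinb13 and the Serpinb3 copies, are left out of these counts.

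The proteases that clade B serpins can meet inside cells were counted next. Of 10 tested, 9 were lower and 1 was not called, beside 38.8% called lower over all genes, and the median log2 fold change was -0.998, against -0.04 over all genes. Casp1, which processes interleukin precursors, had 2 counts in the libraries labelled EphA4 knockout and 486 in control libraries and was 235-fold lower (exact 95% interval 64.7 to 1944). Casp4 fell by 5.80 on the log2 scale. The lysosomal protease genes Ctsh, Ctsb and Ctsl had log2 fold changes of -2.13, -2.01 and -1.15, all called. Of Ctsb, 112 ± 0.70 CPM was measured in the libraries labelled EphA4 knockout and 452 ± 6.82 CPM in control libraries (SD, n = 3 each). Ctsg, the target of human SERPINB6, had 0 counts in all libraries.

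Clade A, made up of hepatic plasma serpins and relatives, was near the floor. Of its 25 symbols 6, all on chromosome 12, were members and 2 were tested. Serpina3n, a secreted acute-phase serpin that can inhibit granzyme B, had 2, 0 and 0 counts in the libraries labelled EphA4 knockout, against 24, 44 and 28 in control libraries. The ratio of the groups was 46.4-fold lower (exact 95% interval 12.5 to 388, edgeR adjusted p = 0.00061). Serpina3g and Serpina3f, which share windows with other Serpina3 copies, had 2 and 0 counts in the libraries labelled EphA4 knockout, against 44 and 17 in control libraries, and were untested. Serpina9 had 13, 5 and 24 counts in the libraries labelled EphA4 knockout, against 28, 14 and 27 in control libraries, and was not called (interval -1.99 to 0.71). Serpina1e had 3 counts in the libraries labelled EphA4 knockout and 18 in control libraries, and 34.6% of its windows occur in other Serpina1 copies. Serpina12 had 1 count in the libraries labelled EphA4 knockout and 10 in control libraries, all in control replicate 3. Of 8 hepatocyte markers 4, among them Ttr, had 0 counts in all libraries.

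The remaining secreted members were also scarce. Serpini1 (clade I, chromosome 3), the gene of neuroserpin, an inhibitor of tissue-type plasminogen activator, had 11, 27 and 29 counts in the libraries labelled EphA4 knockout, against 47, 88 and 71 in control libraries. Its log2 fold change was -1.57 (SE 0.45, adjusted p = 0.0115, edgeR), a call lost without control replicate 2 (log2 fold change -1.26, adjusted p = 0.060). The coagulation inhibitor genes Serpinc1 and Serpind1 had more counts in the libraries labelled EphA4 knockout. The thrombin inhibitor gene Serpine2 and the tissue factor pathway inhibitor gene Tfpi had fewer there. Serpinc1, antithrombin, had 37, 29 and 23 counts in the libraries labelled EphA4 knockout, against 5, 19 and 25 in control libraries, and was not called (interval -0.33 to 2.20), though the groups did not overlap in CPM. The opposite-strand gene Zbtb37 covers 34.4% of Serpinc1 exon bases, so its reads are uncertain. Serpind1 (chromosome 16), heparin cofactor II, had 11, 11 and 8 counts in the libraries labelled EphA4 knockout and 0 in every control library, at least 10.3-fold higher. It was under the filter, and passed as higher where no filter was applied, as did Serpinb9d. In that setting the untested Serpina3f, Serpina3g and Serpinb11 passed as lower.

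Of the 12 untested members, 8 had fewer and 4 had more counts in the libraries labelled EphA4 knockout, with 11 to 46 counts over all libraries. Just outside the minimum of 10 counts were Serping1, the inhibitor of the complement proteases C1r and C1s, with 0 counts in the libraries labelled EphA4 knockout and 9 in control libraries, and Serpinb12 with 0 counts in the libraries labelled EphA4 knockout and 8 in control libraries. In all, 21 symbols had 0 counts in every library and 11 had 1 to 9.

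Among 19 tested secreted serine proteases that serpins can meet, 12 were lower, 4 higher and 3 not called, with a median log2 fold change of -1.11, against 38.8% lower, 32.7% higher and a median of -0.04 over all genes. The complement protease genes C1s1 and C1ra fell by 6.34 and 5.53 on the log2 scale. Tmprss2, a membrane-bound serine protease, had 4, 0 and 0 counts in the libraries labelled EphA4 knockout, against 40, 45 and 65 in control libraries. Hgfac, the activator of hepatocyte growth factor, had 3 counts in the libraries labelled EphA4 knockout and 79 in control libraries, 25.4-fold lower (exact 95% interval 8.40 to 126). Furin, target of human SERPINB8, rose by 0.29 on the log2 scale (SE 0.04, edgeR adjusted p = 0.00036).

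Of 16 tested genes for plasminogen activation, clearance receptors and cofactors 9 were higher and 7 lower, with a median of 0.18. After Lrp1, the largest changes were the falls of the lipoprotein receptor gene Vldlr, the protein C receptor gene Procr and the syndecan gene Sdc2, by 2.00, 1.68 and 1.16 on the log2 scale. Protease inhibitors of other families were lower in 12 of 13 tested genes and higher in 1, with a median of -0.93. Slpi, a secreted inhibitor of neutrophil elastase, had 2, 1 and 5 counts in the libraries labelled EphA4 knockout, against 3520, 2937 and 3282 in control libraries. Reck, Spink2 and Tfpi, the tissue factor pathway inhibitor, fell by 3.53, 1.87 and 1.57 on the log2 scale. Over all genes 38.8% were called lower and 32.7% higher.

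**Figure D5:**
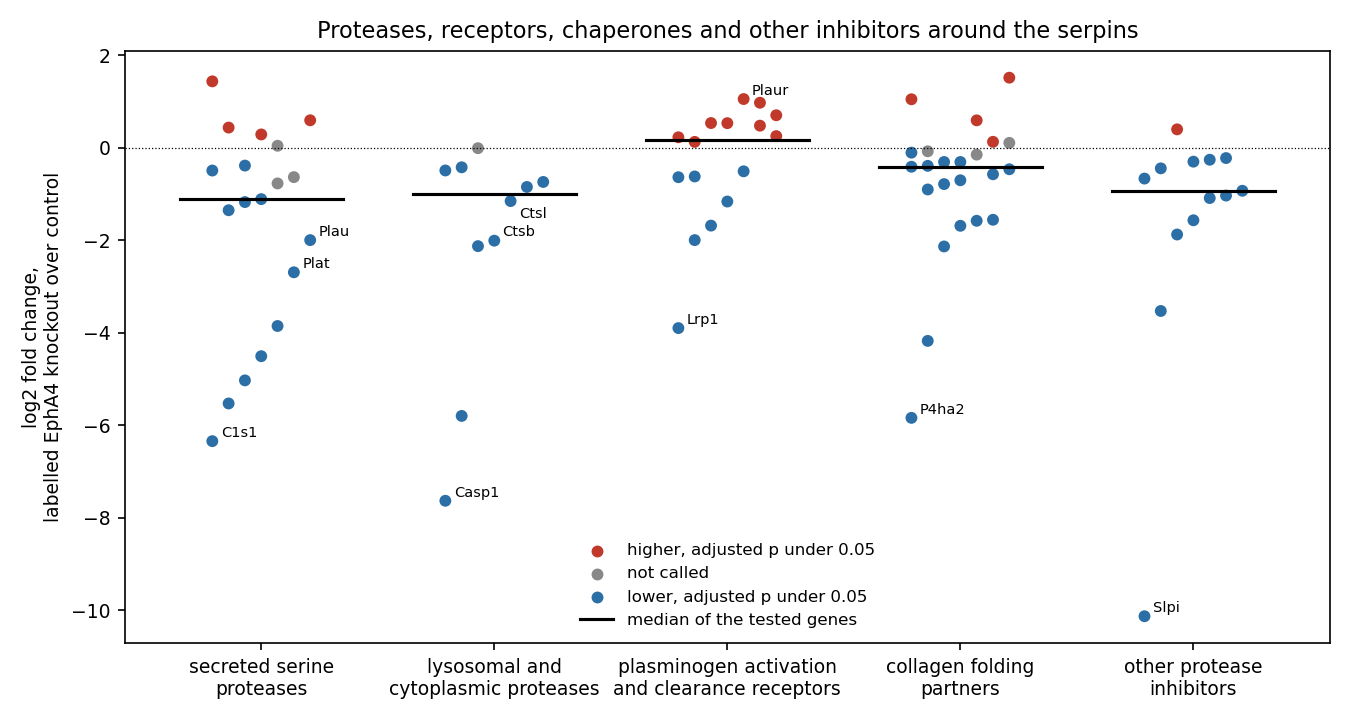
Log2 fold change (libraries labelled EphA4 knockout over control) of each tested gene in 5 lists of proteases, receptors, collagen folding genes and other inhibitors, with a line at each list's median. The medians lie at -1.11, -0.998, 0.18, -0.41 and -0.93 from left to right.

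Summed levels of markers of other cell types that express serpins were low. Leukocyte markers summed to 7.68 to 8.77 CPM in the libraries labelled EphA4 knockout and 4.76 to 5.15 CPM in control libraries, mostly Csf1r, and 5 of 12 were at 0 throughout. Endothelial markers summed to 2.82 to 4.14 CPM in the libraries labelled EphA4 knockout and 6.18 to 7.62 CPM in control libraries. That sum was mostly Egfl7, and Emcn and Cldn5 were at 0. Hepatocyte markers stayed at 0 to 0.0538 CPM in the libraries labelled EphA4 knockout and 0.0813 to 0.399 CPM in control libraries. Mast cell markers stayed at 0 to 0.135 CPM in the libraries labelled EphA4 knockout and 0.759 to 1.57 CPM in control libraries, with 6 of 8 at 0. Most of that sum was the single gene Hdc, with 1, 0 and 5 counts in the libraries labelled EphA4 knockout, against 25, 49 and 42 in control libraries. The part of the leukocyte, endothelial and mast cell signal in these results was not tested.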

How the data were processed

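The file the authors deposited holds raw, unnormalized counts for 55418 gene symbols in 6 libraries. STAR and the build GRCm39 are named, without versions, per the submitters' processing notes; the counting tool, strand setting and annotation stand as not given in the sources used here. Its symbols equal those of GENCODE M21, built on GRCm38, which gave chromosomes, gene order, overlaps and exon lengths for TPM; promoter windows are from RefSeq on GRCm38.p6.

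Genes kept by filterByExpr (15199) were TMM-scaled and tested with edgeR 4.0.16 in R 4.3.3 (glmQLFit, glmQLFTest, group only, two-sided), with Benjamini-Hochberg adjustment over all genes and a threshold of 0.05. Mean ± SD values in CPM are TMM-scaled; other CPM values use library totals. SE is the absolute log2 fold change over the square root of F. A group at 0 counts was set to a floor of 3 counts over the group; ratios on 1 to 3 counts have exact 95% binomial intervals, which like floors cover counting error only. The labels do not say that samples of a group are separate cultures, so p-values reflect the spread among these libraries alone, and that spread may be technical.

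Members and lists were chosen with earlier results of these data known. Counts of calls and medians over the lists cover tested genes only, and a gene high in 1 group can pass the filter through that group alone. The tested members are named, except 1 whose values are not reported here and which stays in the counts, medians and sums; of each partner list, up to 4 called genes by size of change, and Plau, Plat, Plaur, Lrp1, Ctsl, Ctsb and Vtn. Genes named beyond this rule, such as Furin, Plg, Ctsg and P4hb, were chosen after their values were seen. Alternatives were other scaling factors, filters and thresholds, limma-voom (limma 3.58.1), DESeq2 1.42.0, a replicate block, summed copies and each library left out. The edgeR fit was tested on simulated data first. Figures were drawn with matplotlib 3.10.9.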

Additional observations from a re-analysis of the deposited data

How the results depend on the processing

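The number of serpin members called lower, 12 in the main test, was 8 to 15 under the alternatives and within 1.5 times the main count in each. The number called higher, 2, was 1 when at least 5 CPM was required in 3 libraries, with DESeq2, with the replicate block, with glmTreat against a fold of 1.5, at an adjusted p of 0.01 and with lettered copies summed; Serpinb5 was the remaining gene in each. With 1 library left out it was 1 to 4. The highest value came without EphA4 knockout replicate 3, where Serpinb5, Serpinb9c, Serpinb9d and Serpind1 were called. Over all genes, glmTreat called 3467 lower and 2006 higher, against 5904 and 4963. The pairing of replicate numbers was not given by the labels, and deviations of same-numbered libraries correlated at -0.003, 0.029 and 0.008; the replicate block changed 1 member call, that of Serpinb9c (adjusted p = 0.102). Filters and left-out libraries change how many members are tested, from 11 to 31. No log2 fold change of a called member changed sign. Members under 0.5 CPM rest on few counts, and copies of Serpina1, Serpina3 and Serpinb9 share sequence.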
